A study of Mus musculus with 8 samples.

Results

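Mcm2, Mcm3, Mcm4, Mcm5, Mcm6 and Mcm7 encode the subunits of the MCM complex, the ring-shaped helicase that unwinds DNA at replication forks. The 6 genes were taken by symbol, through their Ensembl IDs, from the 53801 gene IDs counted in each of 8 libraries of resting mouse lymphocytes. All 6 were found, and all 6 passed the filter on low counts in every comparison. In G1 the origin recognition complex, Cdc6 and Cdt1 load the ring around DNA as an inactive double hexamer, a step called origin licensing. In S phase the kinase Cdc7 with Dbf4, Cdc45 and the GINS complex turn the loaded ring into the active helicase. Transcription of the MCM genes is controlled by E2F factors, and cells that have left the cycle lose licensing while they stay quiescent.

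The samples were B cells and T cells, both labelled as in the resting state, taken from the spleen of mice of strain B6, with no transgene, deletion or stimulus named in the labels and with age and sex not given there. Each cell type was isolated with a magnetic sorting kit and kept for 2 hours in RPMI medium. Cells for ribosome profiling, which sequences the mRNA fragments that ribosomes protect from nuclease, were then treated with cycloheximide, a blocker of elongation, at 100 µg/ml for 15 minutes. RNA-seq used a TruSeq v2 kit and no cycloheximide is named for it. Each cell type had 2 libraries per assay. The B cell libraries carry the numbers 1 and 3, while T cells have RNA-seq libraries 1 and 4 but footprint libraries 1 and 2. The labels do not say whether they stem from separate animals. In RNA-seq, Xist had 2362 counts in B cell library 1 and 2 in library 3, where the sum of 4 genes of the Y chromosome was 8 and 1616. For T cells Xist was at 1437 in library 1 and 3 in library 4, with Y sums of 6 and 1575. The RNA-seq libraries of each cell type thus came from mice of different sex, and their spread includes that difference. In footprints the Y sums were 3 and 35 in T cell libraries 1 and 2, on totals of 627833 and 136433 counts. These T cell libraries thus also came from different mice. B cell footprint libraries 1 and 3 had Y sums of 72 and 53, which do not separate animals. The B cell spread behind the footprint p-values may be technical. Y sums were high in both B cell footprint libraries, and low in T cell footprint library 1 and B cell RNA-seq library 1. Sex was thus not balanced between the cell types in footprints, nor between footprints and RNA-seq in B cells. Its part in these comparisons was not tested.

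Totals ran from 8945905 to 10050986 counts in RNA-seq and from 136433 to 627833 in footprints. Levels are given in CPM, which are counts scaled to a TMM-adjusted library total. The labelled identity was checked on marker genes. The 8 B cell markers summed to between 10200 and 16350 CPM in B cell libraries and between 84.1 and 709 in T cell libraries, and the 10 T cell markers to between 5146 and 7499 in T cell libraries and between 78.0 and 599 in B cell libraries. Within B cell RNA-seq the T cell markers summed to 78.0 CPM in library 1 and 599 in library 3, with Trac at 3.14 and 87.1. Within T cell RNA-seq the B cell markers summed to 84.1 CPM in library 1 and 175.5 in library 4. The part of the other cell type in the MCM levels was not tested. The RNA-seq libraries numbered 1 differed from the others in a further way in both cell types. They held Mpo, a gene of myeloid precursors, at 69.7 CPM in B cells and 91.5 in T cells, against 0 in B cell library 3 and 0.845 in T cell library 4. They are also the libraries with Xist counts. Klf1, a defining gene of erythroid precursors, which divide in the mouse spleen, reached 0.712 CPM at most in RNA-seq and was at 0 in footprints. The whole list of 10 erythroid genes summed to 78.2 and 74.4 CPM in B cell RNA-seq and to 54.6 and 58.1 CPM in T cells. In bulk samples fewer cells that express a gene and less of its RNA per cell cannot be told apart.

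In RefSeq's annotation of GRCm38.p6, Mcm2 (ENSMUSG00000002870) spans bases 88883474 to 88898780 of chromosome 6, and Mcm3 (ENSMUSG00000041859) spans 20802966 to 20820312 of chromosome 1. Mcm4 (ENSMUSG00000022673) lies at 15623897 to 15637400 of chromosome 16 and Mcm5 (ENSMUSG00000005410) at 75109468 to 75128439 of chromosome 8. Mcm6 (ENSMUSG00000026355) lies at 128331575 to 128359705 of chromosome 1 and Mcm7 (ENSMUSG00000029730) at 138164583 to 138172111 of chromosome 5.

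The start regions of these genes carry E2F-type letters, shown here because E2F control is what the genes are known to share. Windows from 250 bases before to 50 bases after the start were searched on both strands for TTTCCCGC, TTTCGCGC, TTTGCCGC and TTTGGCGC. A match was present for Mcm3, Mcm5, Mcm6 and Mcm7, which are 4 of the 5 genes with a window in the table, and in 2.26% of all 32851 windows. The Mcm2 window held none of the 4 strings, and Mcm4 had no window. CCAAT, the box bound by NF-Y, occurred on either strand in all 6 windows of the 5 genes (Mcm7 has 2 windows) and in 37.4% of all windows. The stretches below run 5′ to 3′ on the strand of the gene, with the E2F-type matches in capitals. In the capital block of Mcm5 and the first block of Mcm6, a match on each strand overlaps the other.
Mcm5, chr8:75109336-75109387, plus strand, from 173 to 122 bases before the start: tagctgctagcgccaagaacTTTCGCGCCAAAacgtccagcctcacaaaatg
Mcm6, chr1:128359725-128359835, minus strand, from 130 to 20 bases before the start: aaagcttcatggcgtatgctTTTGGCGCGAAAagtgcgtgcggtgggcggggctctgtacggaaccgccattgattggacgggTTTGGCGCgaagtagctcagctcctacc
Mcm3, chr1:20820266-20820294, minus strand, from 19 to 47 bases into the transcript: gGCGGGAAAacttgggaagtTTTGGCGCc
Mcm7, chr5:138171849-138171878, minus strand, from 6 to 35 bases into the transcript: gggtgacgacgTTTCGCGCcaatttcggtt
Mcm7 had a further match on the opposite strand 165 to 158 bases before this start. These matches are letters in a window and show no binding.

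The first question was whether resting B and T cells differ in MCM mRNA. All 6 mRNAs were present in all 4 RNA-seq libraries, at 426 to 1163 counts per gene and library. A single gene, Mcm6, passed the test, with less mRNA in B cells. That is 1 of 6, against 18.5% of the 13929 genes tested in either direction, 9.06% called lower in B cells and 9.4% called higher. The median log2 difference of the 6 was -0.22, beside -0.01 over all genes tested.

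The subunits Mcm4, Mcm6 and Mcm7 form a subcomplex that can unwind DNA by itself in vitro. Mcm6 had 81.5 and 78.5 CPM in B cell RNA-seq libraries 1 and 3 and 118 and 119 CPM in T cell libraries 1 and 4. Libraries of a cell type lay close together and the cell types did not overlap. The level was 80.0 ± 2.12 CPM in B cells and 119 ± 0.748 in T cells, a fold of 1.48 (log2 difference -0.57 ± 0.11, edgeR adjusted p = 0.0310, n = 2). Within the pair of libraries numbered 1 the log2 difference was -0.54, and between B cell library 3 and T cell library 4 it was -0.60. Leaving out any 1 of the 4 libraries kept the size, from -0.54 to -0.59, and ended the call, with adjusted p = 0.149 without B cell library 1, 0.170 without B cell library 3, 0.105 without T cell library 1 and 0.109 with T cell library 4 left out.

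Mcm4 had 69.0 and 46.6 CPM in B cell libraries 1 and 3 and 96.3 and 72.4 CPM in T cell libraries 1 and 4. All T cell values were above all B cell values, but the libraries of each cell type were far apart, and the difference did not pass (log2 -0.55 ± 0.25, adjusted p = 0.217). The libraries numbered 1 were the higher ones in each cell type, by 0.57 (log2) in B cells and 0.41 in T cells. These are the libraries with Mpo counts, and their 6 plasma cell genes summed to 1911 CPM in B cells and 1150 in T cells, against 656 and 124 in the other libraries. Their 10 macrophage and neutrophil genes summed to 136 and 159 CPM, against 176 and 408. The part of other cells in the Mcm4 level was not tested. With a term for the libraries numbered 1, the log2 difference was -0.56 (adjusted p = 0.0211), so that Mcm4 passed beside Mcm6 (adjusted p = 0.0194) in a fit with 1 residual degree of freedom that was chosen after seeing the data. Mcm7 had 79.0 and 83.5 CPM in B cells, beside 97.6 and 83.2 in T cells. The cell types overlapped, and the log2 difference was -0.15 ± 0.13 (adjusted p = 0.500).

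Mcm2 and Mcm5 border the gate through which the ring opens around DNA. Mcm2 had 58.9 and 55.6 CPM in B cells, beside 75.1 and 64.0 in T cells. The T cell values were higher without overlap, and the difference did not pass (-0.28 ± 0.13, adjusted p = 0.231). Mcm5 had 80.7 and 75.5 CPM in B cell libraries 1 and 3, beside 80.7 and 71.1 in T cell libraries 1 and 4, with a log2 difference of 0.04 ± 0.12 (adjusted p = 0.863). For Mcm3, the neighbour of Mcm5 in the ring, the values were 68.2 and 73.9 in B cells, beside 74.8 and 73.8 in T cells (-0.06 ± 0.11, adjusted p = 0.753). Values of the cell types overlapped for these last 2 genes. In all, 3 of the 6 genes had libraries that did not overlap between the cell types, each time with the T cells higher, while 61.2% of all genes tested had no overlap in either direction.

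**Figure D1:**
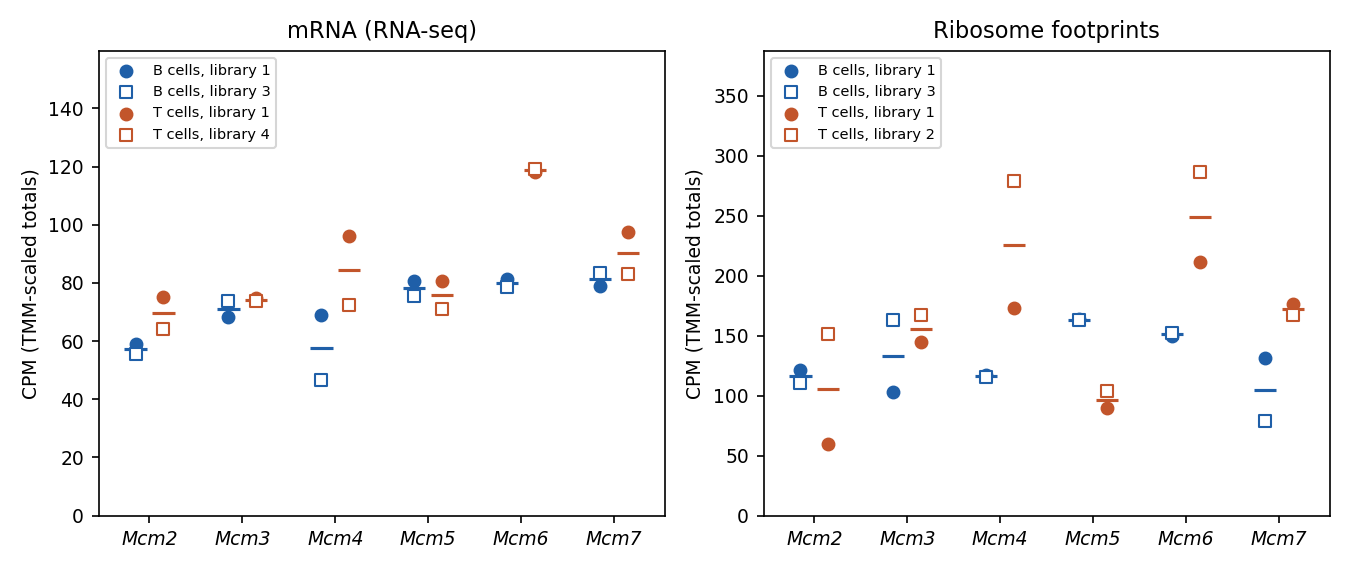
Levels of the 6 MCM genes in CPM by library, for mRNA on the left and ribosome footprints on the right. Points are libraries, short lines are means of 2 libraries. Mcm6 mRNA lies at 78.5 to 81.5 CPM in B cells and 118 to 119 in T cells. Mcm5 is the gene with higher footprint values in both B cell libraries than in both T cell libraries. The Mcm2 footprint mean is also higher in B cells (116 and 105 CPM), with overlap.

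The second question was whether the cell types differ in footprints on these mRNAs. None of the 6 passed in edgeR among 4771 genes tested, of which 13.2% were called in either direction, 8.38% higher and 4.8% lower in B cells. No member had an unadjusted p under 0.05, and 0 members were called by DESeq2 and 0 by limma voom. The members had 15 to 35 footprint counts in B cell libraries, 37 to 132 in T cell library 1 and 13 to 36 in T cell library 2. The 13 counts of Mcm5 in T cell library 2 have an exact 95% Poisson interval of 6.92 to 22.2, which covers counting error only.

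Mcm4, Mcm6 and Mcm7 had fewer footprints in both B cell libraries than in both T cell libraries. Mcm4 had 117 and 116 CPM in B cell libraries 1 and 3 and 173 and 279 in T cell libraries 1 and 2 (log2 difference -0.90 ± 0.41, adjusted p = 0.211). Mcm6 had 150 and 153 CPM in B cells, beside 212 and 287 in T cells (-0.69 ± 0.38, adjusted p = 0.322). Mcm7 had 131 and 78.9 CPM in B cells, beside 177 and 167 in T cells (-0.71 ± 0.42, adjusted p = 0.363). In Mcm4 and Mcm6 the B cell libraries lay close together and T cell library 2, the shallowest of the 8, was the highest.

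Mcm5 lay the other way, with 164 and 163 CPM in B cells, beside 89.9 and 104 in T cells (0.78 ± 0.41, adjusted p = 0.281). Its cell types did not overlap, and both libraries of each cell type were close. Mcm2 had 122 and 110 CPM in B cells, beside 59.4 and 151 in T cells. The T cell libraries lay on either side of the B cells, so that the estimate of 0.31 ± 0.52 (adjusted p = 0.804) became -0.42 when T cell library 1 was left out and 0.92 when library 2 was. Mcm3 had 103 and 163 CPM in B cells, beside 144 and 167 in T cells (-0.21 ± 0.41, adjusted p = 0.836), with overlap. Thus 4 of the 6 genes had footprint libraries without overlap, beside 52.1% of all genes tested.

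**Figure D2:**
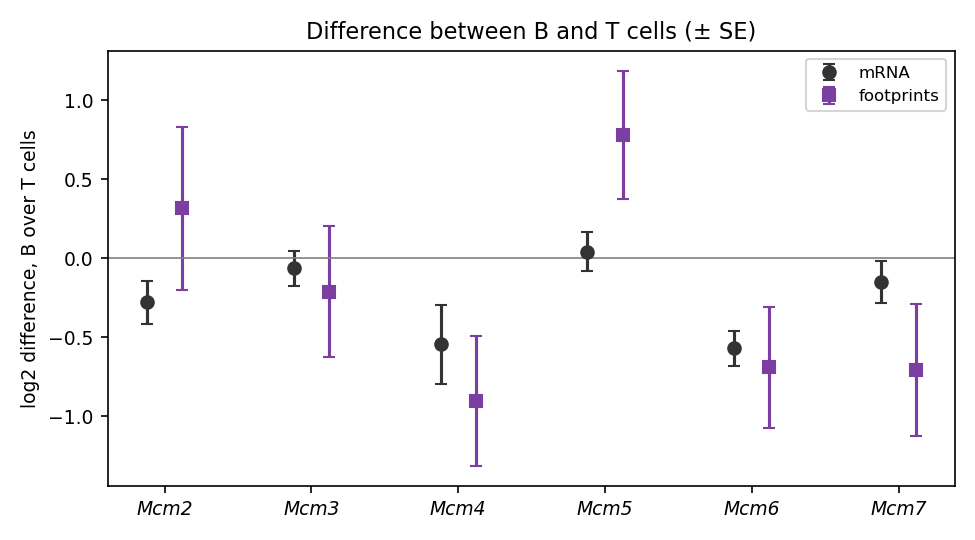
Log2 difference of B over T cells for each MCM gene in mRNA (circles) and footprints (squares), with bars of 1 SE. Of these 12 differences only that of Mcm6 mRNA (-0.57 ± 0.11) passed an adjusted p of 0.05, and each footprint bar is longer than the mRNA bar of the same gene.

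Summed over the 6 genes, mRNA stood at 437 and 414 CPM in the B cell libraries and 543 and 484 CPM in the T cell libraries. Footprints summed to 786 and 784 CPM in B cells and to 855 and 1155 CPM in T cells. The sums were higher in T cells in both assays, without overlap. Of single genes tested, 61.2% had no overlap in mRNA and 52.1% in footprints, in either direction. The members did not all go with the sum. The mean of Mcm5 was higher in B cells in both assays, and that of Mcm2 was higher there in footprints. In mRNA, Mcm6 stood at 80.0 CPM in B cells and 119 in T cells, and Mcm4 at 57.8 and 84.3. In counts these sums are 0.0412% and 0.0421% of B cell RNA-seq, 0.0531% and 0.0512% of T cell RNA-seq, 0.0709% and 0.0641% of B cell footprints and 0.0849% and 0.106% of T cell footprints. The 95% Wilson interval of the last, the widest, runs from 0.0903% to 0.125%. Small nuclear and nucleolar RNA took from 2.79% to 18.9% of the counts of the footprint libraries, which enters any share of a total.

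The third comparison set footprints against mRNA. Gene length cancels only if the reads of each assay fall on the same part of the gene. The features used in counting are not given, so this was not tested. A ratio thus compares footprints per mRNA read between genes, and need not compare ribosomes per length of coding sequence. All 6 MCM genes had a positive log2 ratio in B cells and in T cells, as did 26% of the 13227 genes tested. The zero of this scale is set by the scaling. The median over all genes tested was -0.44 in B cells and -0.54 in T cells, and among the 9071 genes with a mean CPM of at least 10 it was -0.14 and -0.15. RLE scaling gave all-gene medians of -0.34 and -0.42, and TMM within each assay gave -0.37 and -0.42. DESeq2 was run without the filter on low counts, so its medians cover a different set of genes. They were 0.21 and 0.15 over all genes, beside member medians of 0.84 and 0.87. With a minimum of 1 count as the filter, edgeR gave all-gene medians of -1.31 and -1.30, beside member medians of 0.72 and 0.78. The distance of the members from other genes thus depended on the fit and on the genes kept. The 6 stayed above 0 in both cell types in these fits. In T cells Mcm2 was below 0 with limma voom (-0.04) and with a replicate block (-0.49), which left 5 of 6 above 0.

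In B cells the ratios had a median of 0.74. Mcm5 passed (0.84 ± 0.22, adjusted p = 0.0328), which is 1 of 6 beside 6.51% of all genes called in this direction. Mcm2 (0.80 ± 0.35, adjusted p = 0.141), Mcm4 (0.79 ± 0.33, 0.126), Mcm6 (0.69 ± 0.24, 0.0743) and Mcm3 (0.67 ± 0.27, 0.111) had estimates of like size. Mcm7 had 0.15 ± 0.29 (adjusted p = 0.734), with its 2 libraries at 1.61 and 0.971 times its mean mRNA level. The Mcm5 call was lost without any 1 of the 4 B cell libraries, while its estimate stayed between 0.80 and 0.93 over the fits that left out any 1 of the 8 libraries.

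In T cells the median was 0.75. Mcm4 (1.12 ± 0.30, adjusted p = 0.0277), Mcm6 (0.80 ± 0.23, adjusted p = 0.0323) and Mcm3 (0.82 ± 0.26, adjusted p = 0.0449) passed, 3 of 6 beside 8.91% of all genes called in this direction. Mcm7 (0.71 ± 0.27, adjusted p = 0.0815), Mcm2 (0.14 ± 0.35, 0.795) and Mcm5 (0.10 ± 0.23, 0.780) did not. DESeq2 called 4 of the 6 in T cells, and limma voom called 3. Mcm2 was the gene whose T cell libraries disagreed, at 0.853 and 2.17 times its mean mRNA level. With a single T cell footprint library left, 0 members passed, whichever library was left out, and 0 passed without T cell RNA-seq library 4. Without T cell RNA-seq library 1, B cell RNA-seq library 1 or B cell RNA-seq library 3, 1 member passed in each fit.

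**Figure D3:**
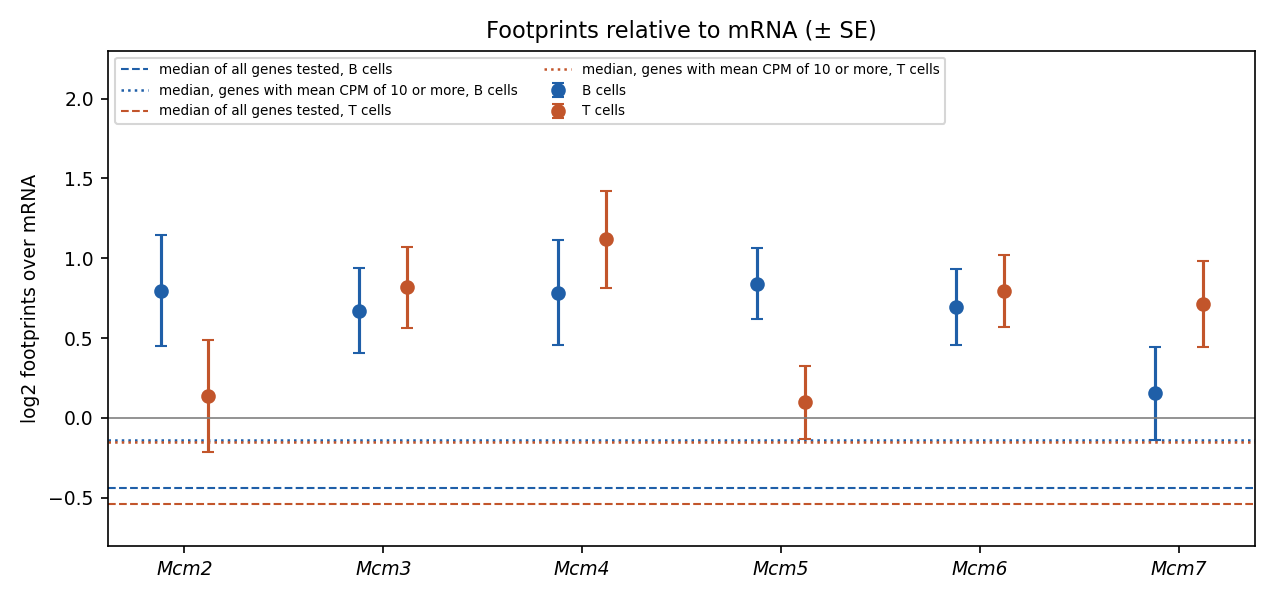
Log2 ratio of footprints to mRNA for each MCM gene in B cells and T cells, with bars of 1 SE, from the fit of all 8 libraries. All points lie above 0 and above the medians of all genes tested (dashed, -0.44 and -0.54) and of genes with a mean CPM of at least 10 (dotted, -0.14 and -0.15).

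The difference in translational efficiency between the cell types, which is the ratio of footprints to mRNA in B cells over that in T cells, was tested as an interaction. In edgeR 0% of the 13227 genes passed, with 748 at an unadjusted p under 0.05, 15 called by DESeq2 and 0 by limma voom. Among the 6 genes 0 passed with each of the 3 tools. Mcm5 had the smallest p (log2 0.74 ± 0.32, unadjusted p = 0.0460, adjusted p = 0.875). Mcm2 had 0.66 ± 0.49 and Mcm7 -0.56 ± 0.40, and the values of Mcm4 (-0.33 ± 0.44), Mcm3 (-0.14 ± 0.37) and Mcm6 (-0.10 ± 0.33) were within 1 SE of 0. The subunits passed the test of footprints over mRNA in different cell types, but that does not show a difference between the cell types, and the interaction did not detect one.

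The balance among the 6 genes was described by the share of each in their summed counts. These shares are compared for the same gene between libraries, since they are not divided by length. In mRNA Mcm6 took 18.8% ± 0.244 in B cells and 23.2% ± 2.04 in T cells (n = 2), and Mcm5 took 18.4% ± 0.134 and 14.8% ± 0.121. In footprints Mcm5 took 20.8% ± 0.0198 in B cells and 9.74% ± 1.09 in T cells. Counting error was far wider than the B cell SD. For the nearest libraries the Wilson intervals of Mcm5 were 15.1% to 28.0% in B cell library 3 and 8.18% to 13.4% in T cell library 1, without overlap. Wilson intervals cover counting error only, and libraries of a cell type differed by more than that. Over genes with 10 or more counts, their chi-square per degree of freedom was 6.07 (B cells) and 4.43 (T cells) in footprints. In RNA-seq it was 20.9 and 29.4. Mcm4 took 14.8% ± 0.0819 of the footprints in B cells and 22.2% ± 2.74 in T cells, and Mcm6 took 19.3% ± 0.294 and 24.8% ± 0.0439. For these genes the Wilson intervals of the nearest footprint libraries overlapped. Those of Mcm4 were 10.3% to 21.0% in B cell library 1 and 17.1% to 23.9% in T cell library 1. Those of Mcm6 were 13.9% to 26.55% in B cell library 3 and 21.3% to 28.6% in T cell library 1. Thus the Mcm5 share was above that of T cells in both B cell libraries, and the Mcm6 share was below it, in both assays. The Mcm4 share did not overlap in footprints, but it did in mRNA, at 15.8% and 11.3% in B cells, beside 17.7% and 15.0% in T cells. Mcm3 overlapped between the cell types in footprints, at 17.0% ± 5.45 and 15.7% ± 1.70, as did Mcm7 at 13.4% ± 4.67 and 17.6% ± 4.35. In mRNA neither did, with B cells above T cells. Mcm3 was at 15.6% and 17.9% against 13.8% and 15.25%, and Mcm7 at 18.1% and 20.2% against 17.98% and 17.2%. The nearest libraries lay within counting error. For Mcm3 the Wilson intervals were 14.5% to 16.8% in B cell library 1 and 14.2% to 16.3% in T cell library 4. For Mcm7 they were 16.9% to 19.3% in B cell library 1 and 17.0% to 19.0% in T cell library 1. Mcm2 overlapped in mRNA (13.5% ± 0.0145 and 13.5% ± 0.427) but not in footprints, at 15.5% and 14.1% in B cells, beside 6.94% and 13.1% in T cells. There too the nearest libraries lay within counting error. Their Wilson intervals were 9.41% to 20.6% in B cell library 3 and 8.55% to 19.6% in T cell library 2. With 2 libraries against 2, an exact two-sided permutation test cannot go below p = 0.333, so these shares carry no test.

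**Figure D4:**
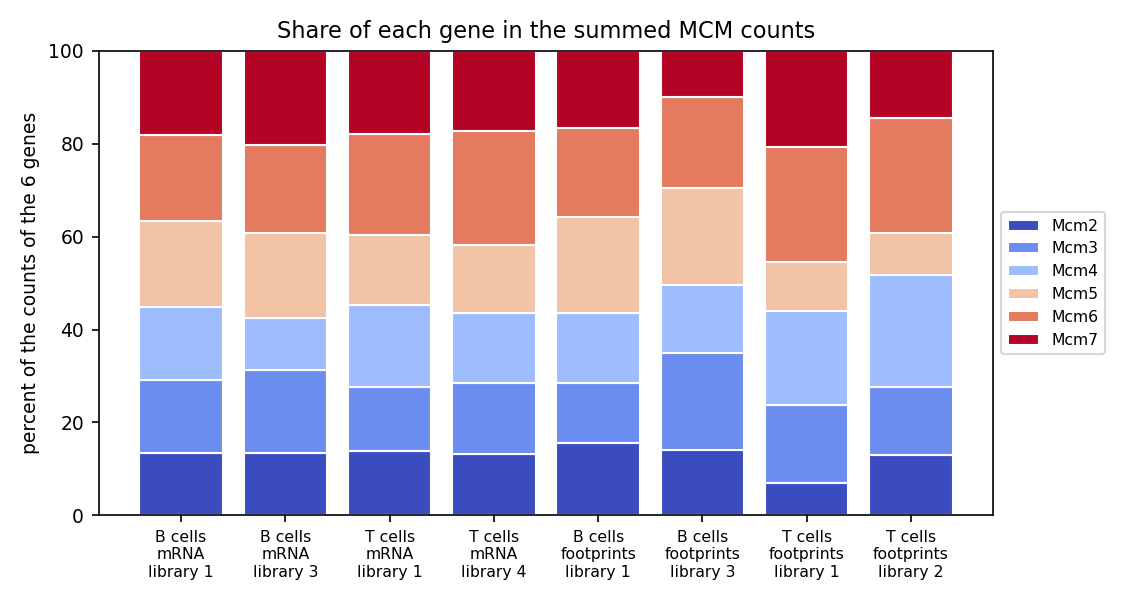
Percent of the summed counts of the 6 MCM genes taken by each gene, in each of the 8 libraries, not divided by gene length. The band of Mcm5 in footprints is 20.8% on average in B cells and 9.74% in T cells, and that of Mcm4 is 14.8% and 22.2%.

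Other genes of the replication pathway were taken from 7 lists with 103 genes, all of them tested in RNA-seq. Of these 6 were higher and 3 lower in B cells, beside 9.4% and 9.06% of all genes tested, and the counts of single lists below stand beside the same background. In the list of the other MCM family genes 0 of 5 passed in mRNA (median 0.30, with 1 at an unadjusted p under 0.05 and 0 called by DESeq2 or voom). Mcmbp, whose protein binds MCM subunits and helps the ring form, had 53.4 ± 6.91 CPM in B cells and 79.7 ± 10.01 in T cells (-0.58 ± 0.16, adjusted p = 0.0741). Mcm9, of a related helicase of DNA repair, had 21.0 ± 3.84 and 24.7 ± 1.60 CPM (-0.24 ± 0.20, adjusted p = 0.497).

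Among the 10 genes that recognise origins and load the ring 0 passed in mRNA (median -0.11, 1 at an unadjusted p under 0.05, 1 called by DESeq2 and 0 by voom). Cdt1, the loader that brings the ring to the origin, had 123 ± 28.6 CPM in B cells and 73.6 ± 8.62 in T cells (0.74 ± 0.21, adjusted p = 0.0745). Lrwd1, a partner of the origin recognition complex, had 64.8 ± 15.6 and 83.2 ± 8.87 CPM (-0.36 ± 0.20, adjusted p = 0.303). Among the 12 genes of helicase activation 0 passed in mRNA (median 0.15, 0 at an unadjusted p under 0.05, 0 by DESeq2 and 0 by voom). Topbp1, a scaffold of helicase activation, had 0.23 ± 0.13 (adjusted p = 0.303) and Donson, another factor of this step, -0.02 ± 0.13 (adjusted p = 0.930).

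The third group of genes acts at the fork. Of its 24 genes, 3 were higher in B cells and 1 was lower (median 0.09). Rfc2 and Rfc1, subunits of the loader of the sliding clamp, stood at 1.89 ± 0.13 (adjusted p = 0.00372) and 1.06 ± 0.13 (adjusted p = 0.0109). Pold1, the catalytic subunit of DNA polymerase delta, stood at 1.64 ± 0.13 (184 ± 13.8 against 59.3 ± 2.999 CPM, adjusted p = 0.00511) and was higher in footprints as well (2.42 ± 0.54, adjusted p = 0.00999). Pole2, a subunit of polymerase epsilon, was lower in mRNA (-1.41 ± 0.33, adjusted p = 0.0482). Pcna, the sliding clamp (-0.11 ± 0.40, adjusted p = 0.891), and Rpa1, the single-strand binding protein (-0.27 ± 0.14, adjusted p = 0.254), did not pass.

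In the list of E2F factors and pocket proteins 1 of 18 was higher and 2 were lower in B cells (median -0.02). E2f2 stood at 1.33 ± 0.18 (92.8 ± 13.3 against 37.0 ± 5.41 CPM, adjusted p = 0.0131). Rbl2, the pocket protein p130 of quiescent cells, stood at -0.76 ± 0.12 (50.6 ± 0.634 against 85.7 ± 7.63 CPM, adjusted p = 0.0206), and Tfdp1, the dimer partner of E2F, at -0.65 ± 0.15 (adjusted p = 0.0441). Rbbp4, a histone-binding subunit of the complex that holds E2F targets silent (-0.09 ± 0.13, adjusted p = 0.696), and E2f4, the E2F of resting cells (0.10 ± 0.17, adjusted p = 0.730), did not pass. Of 9 genes of nucleotide supply 1 was higher, the thymidine kinase gene Tk1 (0.97 ± 0.16, adjusted p = 0.0223; list median -0.21), while Samhd1 (0.27 ± 0.16, adjusted p = 0.335) and Rrm1 (0.28 ± 0.13, adjusted p = 0.230) did not pass.

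Markers of S, G2 and M phase were present in these resting populations. Mki67, the proliferation antigen Ki-67, stood at 41.5 ± 10.3 CPM of mRNA in B cells and at 39.6 ± 3.98 in T cells (0.07 ± 0.22, adjusted p = 0.873), and Top2a, topoisomerase II alpha, had 40.0 ± 8.03 and 47.4 ± 7.43 (-0.25 ± 0.21, adjusted p = 0.501). Of the 25 markers 1 differed in mRNA, Cenpa, the centromeric histone H3 variant, which was higher in B cells (0.63 ± 0.11, adjusted p = 0.0257; list median -0.16). How much of the MCM mRNA came from cells in cycle was not tested.

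**Figure D5:**
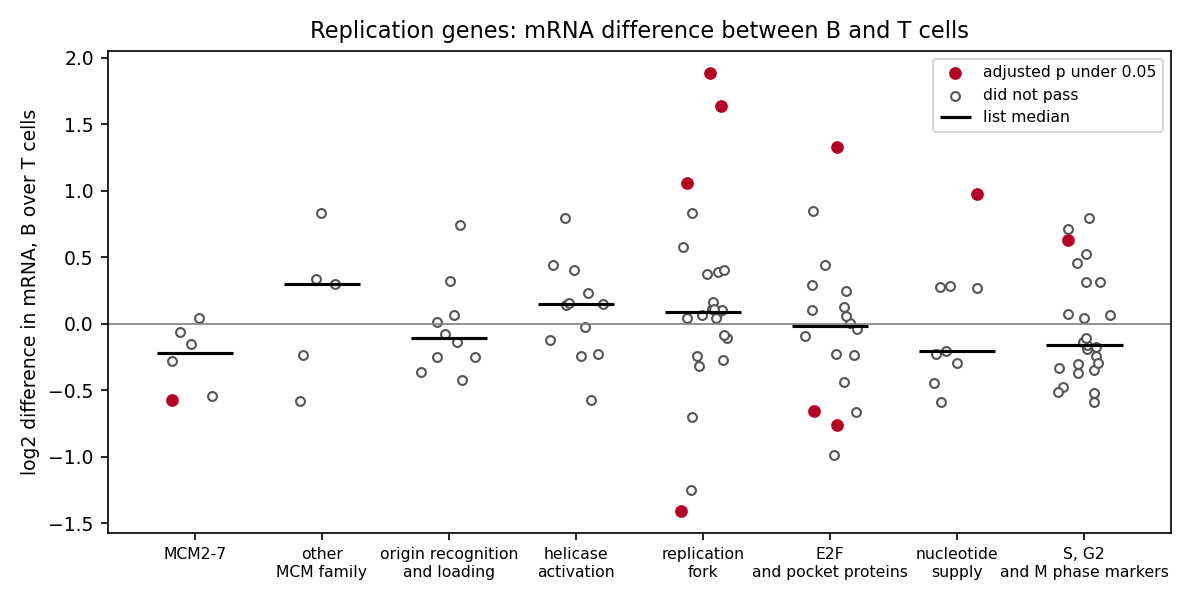
Log2 difference in mRNA of B over T cells for the 6 MCM genes and the 7 lists of related genes, 1 point per gene, filled where the adjusted p was under 0.05, with the list median as a line. The MCM median is -0.22, 1 of its 6 points is filled, and the lists of origin loading and helicase activation hold no filled point.

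Of the 103 genes, 27 passed the filter on low counts in footprints and were tested between the cell types, and 1, Pold1, passed, beside 13.2% of all genes tested. Cdt1 (-0.02 ± 0.50, adjusted p = 0.992), Orc4 of the origin recognition complex (-0.56 ± 0.51, adjusted p = 0.600), Dbf4 (-1.66 ± 0.52, adjusted p = 0.0574) and Mcmbp (0.42 ± 0.43, adjusted p = 0.649) did not.

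Against mRNA, 10 of the 103 genes had more and 6 had fewer footprints in B cells, and 12 had more and 6 fewer in T cells. Over all genes tested 6.51% were higher and 12.3% lower in B cells, and 8.91% were higher and 18.6% lower in T cells. Mcmbp passed in B cells (1.60 ± 0.35, adjusted p = 0.0161) and not in T cells (0.62 ± 0.34, adjusted p = 0.203), and the interaction for it did not pass (0.98 ± 0.49, adjusted p = 0.875). Geminin, the inhibitor of Cdt1 encoded by Gmnn, passed in T cells (1.60 ± 0.35, adjusted p = 0.0123), as did Orc1 (3.11 ± 0.67, adjusted p = 0.0114) on 14 and 1 footprint counts, and Dbf4 (1.44 ± 0.34, adjusted p = 0.0165). Gins2, a GINS subunit, was lower in both cell types. It had 62.6 ± 2.12 CPM of mRNA in B cells with 0 and 1 footprint counts (adjusted p = 0.00196), and 56.8 ± 1.18 CPM in T cells with 13 and 3 footprint counts (-1.59 ± 0.36 in T cells, adjusted p = 0.0133).

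Donson was lower in B cells (-1.43 ± 0.42, adjusted p = 0.0458), and Cdc7 was lower in T cells (-2.13 ± 0.62, adjusted p = 0.0341) on 3 and 0 footprint counts. Among the fork genes Rfc2 (-2.79 ± 0.56, adjusted p = 0.0113) and Rfc5 were lower and the primase gene Prim2 higher in B cells, while Pold1 (-1.38 ± 0.41, adjusted p = 0.0367) was lower and Rfc3 higher in T cells. Rfc2 had 19 and 2 footprint counts in B cells, and Pold1 had 20 and 1 in T cells. In the nucleotide list Dck, the deoxycytidine kinase gene, was higher in both cell types and Rrm1 in T cells (1.01 ± 0.26, adjusted p = 0.0216).

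E2f4 and E2f2 were low in footprints against mRNA in both cell types. E2f4 stood at -2.17 ± 0.38 in B cells (adjusted p = 0.00691) and -2.04 ± 0.35 in T cells (adjusted p = 0.00482), and E2f2 at -1.65 ± 0.33 (adjusted p = 0.0119) and -1.52 ± 0.37 (adjusted p = 0.0185). Rbl1, Rbbp4 and Lin9 were higher in B cells, and in T cells Lin54 was higher and Tfdp2 lower. Among the S, G2 and M phase markers 4 of 25 were higher in B cells and 5 of 25 in T cells, beside 6.51% and 8.91% of all genes. The list medians were 0.62 and 0.57, beside -0.44 and -0.54 over all genes. Cenpf, Bub1b, Nusap1 and Top2a passed in both cell types and Ccnb2 in T cells. Top2a was at 0.98 ± 0.29 (adjusted p = 0.0495) and 1.06 ± 0.27 (adjusted p = 0.0219). These positive ratios stand beside those of the MCM genes, 0.74 and 0.75, and no test compared the lists.

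The genes next to the MCM genes were checked, because no source used here says whether strand was used in counting. Mcm7 overlaps Ap4m1, an adaptor complex gene, over 91 bases at its start, so that reads there cannot be assigned with certainty. Ap4m1 stood at 49.7 ± 2.91 CPM of mRNA in B cells and at 39.4 ± 3.86 in T cells (0.33 ± 0.15, adjusted p = 0.203). Mcm7 also contains the microRNA genes Mir25, Mir93 and Mir106b, which had 0 or 1 count in each of the 8 libraries. The other 5 MCM genes overlap no gene in the table. Mcm4 starts 44 bases from Prkdc, the kinase of DNA end joining. Prkdc stood at 37.3 ± 2.50 CPM of mRNA in B cells and at 38.0 ± 0.356 in T cells (-0.03 ± 0.14, adjusted p = 0.925), beside -0.55 for Mcm4.

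The remaining neighbours in the files were Podxl2 and Tpra1 by Mcm2, Il17f and Gm20587 by Mcm3, Gm7748 by Mcm4, Hmox1 and Rasd2 by Mcm5, Lct and Dars by Mcm6, and Cops6 and Taf6 by Mcm7. Dars, the aspartyl-tRNA synthetase, had 64.9 ± 10.1 CPM in B cells and 84.8 ± 2.38 in T cells (-0.39 ± 0.15, adjusted p = 0.154). Hmox1, the heme oxygenase of macrophages among other cells, had 49 and 516 counts in B cell RNA-seq libraries 1 and 3 and 79 and 1766 in T cell libraries 1 and 4. It was low in the libraries numbered 1, where Mpo was high, while Mcm5 beside it stayed between 71.1 and 80.7 CPM.

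The genes most like the mean MCM profile over the 4 RNA-seq libraries were Surf4, Cul3, Xrn2, Papola and Nob1, among 9119 genes with a mean CPM of at least 10. Likeness was the root mean square distance between log2 CPM profiles, each centred on its own mean, and these 5 lay 0.00948 to 0.0150 from the MCM mean, beside a median of 0.269 over all genes ranked. The mean MCM profile was -0.08 and -0.18 in B cell libraries 1 and 3 and 0.22 and 0.04 in T cell libraries 1 and 4. Of the 6 genes Mcm2 was nearest to that mean (0.0210) and Mcm4 farthest (0.236). With 4 points a close match is easily found, and it says nothing of shared function.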

How the data were processed

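B cells and T cells of mouse spleen were measured by RNA-seq and by ribosome profiling. Per the submitters' processing notes, the authors used FastQC, Bowtie2, TopHat, HTSeq and mm10. Their versions and settings, and how HTSeq treated strand and features, are not given in the sources. The values are whole-number counts per Ensembl gene ID, as deposited by the authors, per the labels and the values. 0 count columns were left unused.

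The test was the quasi-likelihood test of edgeR 4.0.16 (R 4.3.3), after TMM scaling and filterByExpr (minimum count 10, total 15), with Benjamini-Hochberg adjustment over all genes tested, at a threshold of 0.05. B and T cells were compared in the 4 libraries of an assay, with 2 residual degrees of freedom. Footprints were set against mRNA, and translational efficiency was tested as the interaction of assay and cell type, in 1 fit over the 8 libraries, which leaves 4 residual degrees of freedom. CPM are counts scaled to a library total adjusted by TMM within an assay. After ± stands the SE for a log2 difference and the SD of 2 libraries for a CPM or a share. The fit was tested on simulated data with planted changes larger than any MCM difference given here. That does not show how well differences of the size seen in the MCM genes are detected. Levels had been planned per kb of coding length. Coding lengths were not used here, so levels are compared between libraries and not between genes.

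The 6 genes and the 7 lists of related genes were chosen with earlier results of these data known. Named from each list and comparison were up to 4 members with the smallest p past the threshold, and members with the highest mean CPM among the others. Where a count was 5 or fewer, its further members were named after their values were seen. The genes next to or overlapping an MCM gene were also named, as were the 5 genes with the most similar profile. Sequences and positions come from RefSeq tables of GRCm38.p6. Of the 6 genes 5 had a promoter window there.

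The alternatives were DESeq2 1.42.0, limma 3.58.1 voom, RLE scaling, TMM within each assay, a minimum of 1 count as the filter or a floor of 10 on mean CPM, abundant RNA classes left out, a single fit of all 8 libraries, a block for replicate number, and each library left out in turn. For mRNA a term for number 1 was added after seeing the data.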

Additional observations from a re-analysis of the deposited data

How the results depend on the processing

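Each group has 2 libraries, and in footprints the members had 13 to 132 counts. The mRNA of B against T cells gave 1 member past the threshold, and 0 with no filter, 2 with a term for the libraries numbered 1, 0 with all 8 libraries in a single fit, and 0 in each fit that left out a library. Footprints over mRNA in B cells gave 1, and 3 with DESeq2, 0 with no filter, 2 with a mean CPM of at least 10, 0 with limma voom and 0 to 1 with a library left out. In T cells the count of 3 was 1 with no filter and 0 to 4 with a library left out. DESeq2 gave 4 members in T cells and limma voom 3. The summed footprint CPM of B cells, 785, was 675 on library totals without TMM factors.

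The estimates that changed sign had not passed the threshold. Mcm5 mRNA was -0.0148 with all 8 libraries in a single fit and -0.0597 to 0.1375 with a library left out (-0.0597 without T cell library 4). Footprints of Mcm3 ranged from -0.5854 to 0.0895 (0.0895 without B cell library 1) and of Mcm2 from -0.4241 to 0.9165 (-0.4241 without T cell library 1). Footprints over mRNA of Mcm7 in B cells ranged from -0.3001 to 0.4374 (-0.3001 without B cell footprint library 1). Those of Mcm2 in T cells were -0.0415 with voom and ranged from -0.2975 to 0.8554 (-0.2975 without T cell footprint library 2). Efficiency ranged from -0.5528 to 0.0070 for Mcm3 (0.0070 without B cell footprint library 1) and from -0.1010 to 1.0681 for Mcm2 (-0.1010 without T cell footprint library 1). The cause was not tested.

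With a replicate block by cell type and number, 0 members passed in footprints over mRNA in B cells, 0 in T cells and 0 in efficiency, with Mcm2 in T cells at -0.49 and the efficiency of Mcm4 at 0.11 and of Mcm6 at 0.0053. The block pairs RNA-seq with footprints by number. In B cells the deviations of libraries 1 and 3 in the 2 assays correlated at -0.00866 over 13227 genes. RNA-seq library 1 of B cells had 2362 Xist counts while footprint library 1 had 72 Y-linked counts, so these share only a number. In T cells only number 1 occurs in both assays, with 6 Y-linked counts in RNA-seq and 3 in footprints. Whether those T cell libraries share a mouse was not tested. Between B and T cells the labels share only the number 1. The term for number 1 in mRNA, which sets library 1 against 1 and 3 against 4, gave the 2 members counted above. No such fit was run in footprints.

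Over all genes, the count of 2572 in mRNA was 1455 and 1626 without B cell library 1 and 3, and 629 in footprints was 415 without T cell library 1. Footprints over mRNA in B cells had 2484, and 1281 to 2571 with a library left out. In T cells it had 3642, 1684 with the block and 947 to 4154 with a library left out. Efficiency had 0, 15 with DESeq2 and 87 with the block.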
